A study of Arabidopsis thaliana with 9 samples.

Results

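The 10 genes described here act in the perception, signaling or inactivation of gibberellin (GA), a hormone that promotes seed germination. They are the GA receptor genes GID1A, GID1B and GID1C and the DELLA repressor genes RGA, GAI, RGL1, RGL2 and RGL3. The F-box gene SLY1 and the GA-inactivating enzyme gene GA2ox2 complete the set. The 10 genes were taken from the deposited count matrix by their AGI identifiers, and all were found among its 32830 genes. GA2ox2 had 2 entries in the matrix, which were summed, and SLY1 carries the name GID2 there. RNA was sequenced from whole Arabidopsis thaliana seeds after 4 days of dark imbibition at 4 °C followed by 24 h of darkness at room temperature. The seeds formed 3 groups with 3 biological replicates each. The untreated AtKAI2OE group was an AtKAI2 overexpression line labelled Col-0, on medium with 0 μM KAR2. The AtKAI2OE KAR2 group was the same line on medium with 0.5 μM KAR2, a karrikin, which is a smoke-derived germination stimulant perceived through the receptor KAI2. The Ara-1 group was wild-type seed of the Ara-1 accession on medium without KAR2. According to the methods of the study, its overexpression lines carry AtKAI2 under the constitutive 35S promoter in the htl-3 (kai2) mutant, so the endogenous receptor gene and the transgene differ from Ara-1 at once. Accession, genetic background and transgene therefore cannot be told apart in any comparison with Ara-1, nor from any difference in the progress of germination. In the comparison of Ara-1 with KAR2-treated AtKAI2OE, the treatment is a further difference of this kind. Ara-1 seed with KAR2 was not analysed here.

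In the GA pathway, GA binds a soluble GID1 receptor, and the receptor with its hormone then binds the DELLA domain of a DELLA protein. DELLA proteins are nuclear GRAS-family regulators that hold back GA-responsive growth, and RGL2 is known as the main DELLA repressor of Arabidopsis seed germination. SLY1 is the F-box subunit of the SCF ubiquitin ligase that marks the receptor-bound DELLA for the proteasome, while GA2ox2 removes active GA by 2β-hydroxylation. The measurements below are of RNA only, and DELLA abundance in the cell is set largely by protein turnover, which was not measured here.

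Libraries held between 17479888 and 33306518 counts assigned to genes. In the untreated AtKAI2OE libraries the 5 storage protein and oleosin genes CRA1, CRB, CRC, OLEO1 and OLEO2 alone summed to between 119048 and 158418 CPM (counts per 1000000 counts). This sum was between 14063 and 15235 CPM after KAR2 and between 312 and 524 CPM in Ara-1, so the libraries differed greatly in composition. Levels in CPM were scaled by the trimmed mean of M-values (TMM) over the 9 libraries. In bulk seeds, fewer cells of a type and less RNA per cell cannot be told apart. The KAI2 gene, counted without separating transgene from endogenous transcript, was at 129, 129 and 217 CPM in untreated AtKAI2OE, at 584, 604 and 568 CPM with KAR2 and at 9.77, 7.91 and 7.84 CPM in Ara-1. Its level was thus higher in every AtKAI2OE library than in every Ara-1 library, as the labels say, and it also differed between the untreated and the KAR2-treated seeds of the same line (log2 fold change 1.87, SE 0.21, adjusted p = 0.000357 in edgeR).

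Differences were tested with edgeR's quasi-likelihood test on raw counts, and p-values were adjusted over all genes tested by the Benjamini-Hochberg method with a threshold of 0.05. Each log2 fold change is given as the first-named group over the second with its standard error (SE), and n = 3 libraries in each group throughout.

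The DELLA genes and the receptors are paralogs, so it matters whether their reads can be told apart. In the transcripts of the 10 genes, no stretch of 75 bases, the study's read length, was found more than once in the TAIR10.1 genome. Stretches across an exon junction can be missing from the genome, and they were not searched among other transcripts. No annotated gene overlapped any of the 10 genes. GID1A and GID1C were the closest receptor pair, with 86% identical residues in the aligned proteins, against 69.2% for GID1A and GID1B and 71.4% for GID1B and GID1C. Among the DELLA proteins, RGA and GAI were identical at 83.8% of aligned residues and RGL2 and RGL3 at 74%, and the other 8 pairs ranged from 61.4% to 67.7%.

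The motif that names the family is printed for the 5 DELLA genes because it is the part of the protein that meets the GA receptor, and because the 5 genes moved in different directions. Each line is the coding strand in RefSeq's TAIR10.1 annotation, and the capitals mark the 15 bases of the DELLA codons or the bases that align with those of RGA.
RGA: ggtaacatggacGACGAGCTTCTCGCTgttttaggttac
GAI: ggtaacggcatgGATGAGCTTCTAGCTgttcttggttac
RGL2: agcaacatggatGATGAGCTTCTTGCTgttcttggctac
RGL1: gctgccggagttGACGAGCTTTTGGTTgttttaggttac
RGL3: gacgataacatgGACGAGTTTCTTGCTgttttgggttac
The capitals encode the letters D, E, L, L and A in RGA from residue 44, in GAI from residue 28 and in RGL2 from residue 44. In RGL1, from residue 32, and in RGL3, from residue 34, the aligned stretch differs from these letters at 1 residue each.

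The receptor genes moved in opposite directions. GID1A and GID1C were highest in untreated AtKAI2OE, intermediate with KAR2 and lowest in Ara-1, whereas GID1B was near the detection limit in untreated AtKAI2OE and was present in the other groups. GID1A (AT3G05120, chr3:1430363-1432844, plus strand), with 2 exons like the other receptor genes, was at 224, 201 and 255 CPM in the untreated AtKAI2OE libraries, at 84.7, 84.7 and 79.4 CPM with KAR2 and at 14.6, 15.1 and 14.8 CPM in Ara-1. The 3 groups did not overlap, and the SD over the 3 Ara-1 libraries was 0.254 CPM. GID1A fell 2.78-fold with KAR2 (log2 fold change -1.47, SE 0.12, adjusted p = 0.000113 in edgeR). It was 15.6-fold lower in Ara-1 than in untreated AtKAI2OE (log2 fold change -3.96, SE 0.16, adjusted p = 3.33e-06) and 5.74-fold lower than in the KAR2-treated seeds (log2 fold change -2.52, SE 0.07, adjusted p = 2.75e-07).

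GID1C (AT5G27320, chr5:9628990-9631291, plus strand), the receptor gene closest to GID1A in sequence, followed the same order at lower levels. It was at 42.6, 36.0 and 49.1 CPM in untreated AtKAI2OE, at 21.1, 21.9 and 20.6 CPM with KAR2 and at 10.6, 10.1 and 11.3 CPM in Ara-1, again with no overlap between groups. GID1C fell 2.04-fold with KAR2 (log2 fold change -1.03, SE 0.13, adjusted p = 0.000673 in edgeR). The Ara-1 libraries were 4.06-fold below untreated AtKAI2OE (log2 fold change -2.02, SE 0.16, adjusted p = 3.1e-05) and 2.04-fold below KAR2-treated AtKAI2OE (log2 fold change -1.03, SE 0.09, adjusted p = 3.55e-05).

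GID1B (AT3G63010, chr3:23289243-23291486, plus strand), the third receptor gene, had raw counts of 0, 8 and 21 in the untreated AtKAI2OE libraries, which is 0, 0.321 and 0.984 CPM. With KAR2 it was at 5.13, 5.94 and 4.84 CPM, from 159, 141 and 143 counts, and in Ara-1 at 6.04, 5.54 and 7.28 CPM, from 107, 204 and 257 counts. Every library of these groups was above every untreated library, while the KAR2-treated and Ara-1 libraries overlapped. GID1B rose with KAR2 (log2 fold change 3.53, SE 0.74, adjusted p = 0.0061 in edgeR) and was higher in Ara-1 than in untreated AtKAI2OE (log2 fold change 3.78, SE 0.77, adjusted p = 0.00326). These SE values exceeded those of every other tested gene of the 10 in the same comparisons. Without untreated replicate 3, the library with 21 of the 29 untreated counts, the log2 fold changes were 4.72 with KAR2 (adjusted p = 0.00443) and 4.98 in Ara-1 (adjusted p = 0.00283), so that their size rests on few counts. Between Ara-1 and KAR2-treated seeds GID1B did not pass the test (log2 fold change 0.21, SE 0.15, adjusted p = 0.255).

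**Figure D1:**
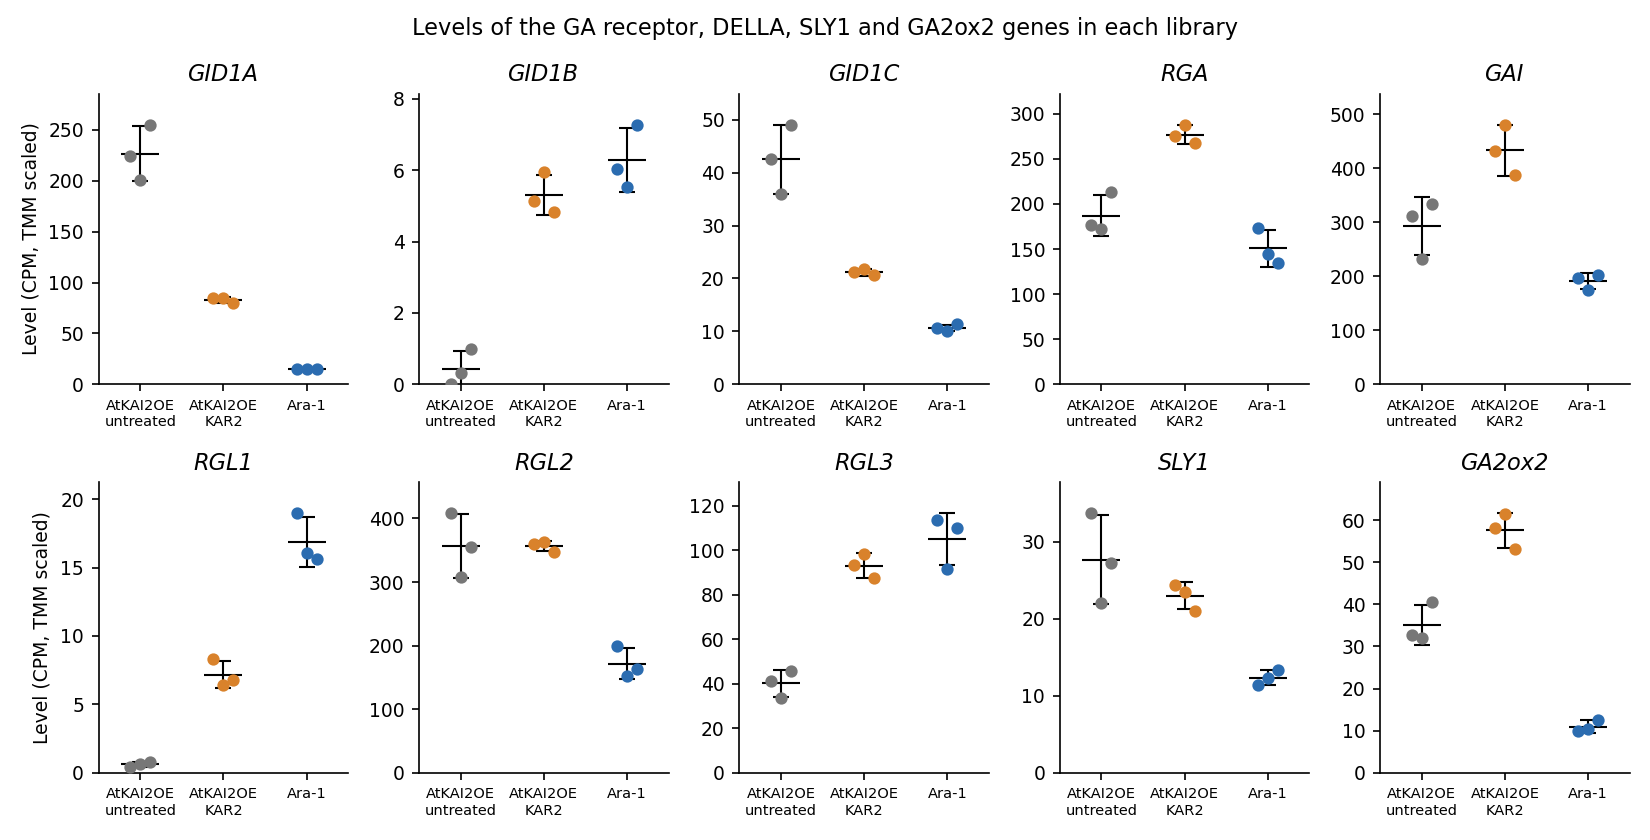
Level of each of the 10 genes (CPM, TMM scaled, vertical axes from 0) in the 3 libraries of each group. Points are libraries, horizontal lines are means and error bars are SD; GID1A and GID1C step down from untreated AtKAI2OE to KAR2 to Ara-1, while GID1B, RGL1 and RGL3 are lowest in untreated AtKAI2OE.

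The makeup of the receptor RNA pool was compared per length, as CPM per kb of coding sequence, within each library. Such shares do not depend on how libraries are scaled. GID1A held 83.6% to 84.6% of the summed receptor level in the untreated AtKAI2OE libraries, 75.4% to 76.4% with KAR2 and 44.7% to 49.4% in Ara-1. GID1C held 15.2% to 16.1%, 19.1% to 19.7% and 33.1% to 34.2% in the same order, and GID1B held 0% to 0.311%, 4.45% to 5.10% and 17.5% to 21.1%. No share overlapped between any of the groups. The receptor sum itself was 260 ± 32.9 CPM per kb (SD, n = 3) in untreated AtKAI2OE, 105 ± 3.89 with KAR2 and 30.4 ± 1.38 in Ara-1, so the groups with the more even pool had the smaller total.

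The DELLA genes fell into patterns of their own. RGL1 and RGL3 were lowest in untreated AtKAI2OE and higher with KAR2 and in Ara-1. RGA and GAI were highest with KAR2, and RGL2 overlapped between both AtKAI2OE groups and was lower in Ara-1.

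RGL1 (AT1G66350, chr1:24748105-24750186, plus strand), a DELLA gene known for its role in flowers and seeds, was at 0.397, 0.642 and 0.797 CPM in untreated AtKAI2OE, from 6, 16 and 17 raw counts. It was at 8.3, 6.45 and 6.8 CPM with KAR2 and at 19.0, 16.1 and 15.6 CPM in Ara-1, with no overlap between groups. RGL1 rose 11.3-fold with KAR2 (log2 fold change 3.50, SE 0.28, adjusted p = 9.03e-05 in edgeR). It was 26.4-fold higher in Ara-1 than in untreated AtKAI2OE (log2 fold change 4.72, SE 0.26, adjusted p = 6.96e-06), the largest fold among the 10 genes in that comparison, and 2.28-fold higher than in KAR2-treated seeds (log2 fold change 1.19, SE 0.13, adjusted p = 0.000167). It was the only one of the 10 genes called higher in Ara-1 than in KAR2-treated AtKAI2OE.

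RGL3 (AT5G17490, chr5:5763989-5766246, minus strand), a DELLA gene linked to jasmonate signaling and defense, was at 41.4, 33.7 and 45.7 CPM in untreated AtKAI2OE, at 93.4, 98.4 and 87.5 CPM with KAR2 and at 113, 91.6 and 110 CPM in Ara-1. The untreated libraries lay below all others, and the KAR2 and Ara-1 libraries overlapped. RGL3 rose 2.28-fold with KAR2 (log2 fold change 1.19, SE 0.14, adjusted p = 0.00042 in edgeR) and was 2.56-fold higher in Ara-1 than in untreated AtKAI2OE (log2 fold change 1.36, SE 0.17, adjusted p = 0.000268). Between Ara-1 and KAR2-treated seeds it did not pass the test (log2 fold change 0.13, SE 0.10, adjusted p = 0.27), although without Ara-1 replicate 2, the lowest Ara-1 library for this gene, the log2 fold change was 0.26 with an adjusted p of 0.028. RGL1 and RGL3, whose stretch above differs from the DELLA letters, were also the DELLA genes with more RNA in Ara-1 than in untreated AtKAI2OE. This was seen after the values were known, and it concerns 5 genes. It does not hold with KAR2, where RGA and GAI, which have the letters, rose as well (log2 fold change 0.54 each).

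RGA (AT2G01570, chr2:255247-257568, minus strand), the DELLA gene first known as a repressor of a GA-deficient mutant phenotype, was at 176, 172 and 213 CPM in untreated AtKAI2OE, at 275, 288 and 267 CPM with KAR2 and at 173, 144 and 135 CPM in Ara-1. The KAR2 libraries lay above all others, while the untreated and Ara-1 libraries overlapped. RGA rose 1.46-fold with KAR2 (log2 fold change 0.54, SE 0.12, adjusted p = 0.00767 in edgeR), and it was 1.89-fold lower in Ara-1 than in KAR2-treated seeds (log2 fold change -0.92, SE 0.11, adjusted p = 0.000194). Between Ara-1 and untreated AtKAI2OE it did not pass the test (log2 fold change -0.34, SE 0.15, adjusted p = 0.0841).

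GAI (AT1G14920, chr1:5148982-5151415, plus strand), the closest paralog of RGA and the gene of a GA-insensitive dwarf mutant, was at 312, 232 and 334 CPM in untreated AtKAI2OE, at 433, 481 and 387 CPM with KAR2 and at 197, 174 and 202 CPM in Ara-1. The groups did not overlap, and the SD was 53.9 CPM in untreated AtKAI2OE and 47.0 CPM with KAR2. GAI rose 1.46-fold with KAR2 (log2 fold change 0.54, SE 0.17, adjusted p = 0.034 in edgeR), a call that was lost without any 1 of the KAR2 libraries, with adjusted p between 0.0641 and 0.127. GAI was 1.56-fold lower in Ara-1 than in untreated AtKAI2OE (log2 fold change -0.64, SE 0.19, adjusted p = 0.0163), which was lost without Ara-1 replicate 1 (adjusted p = 0.0504) or replicate 2 (adjusted p = 0.0744). The difference between Ara-1 and KAR2-treated seeds was 2.33-fold (log2 fold change -1.22, SE 0.11, adjusted p = 4.49e-05).

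RGL2 (AT3G03450, chr3:819337-821652, minus strand) was at 408, 308 and 356 CPM in untreated AtKAI2OE, at 359, 364 and 348 CPM with KAR2 and at 200, 153 and 163 CPM in Ara-1. The KAR2 libraries lay inside the range of the untreated ones, and the Ara-1 libraries lay below both groups. No difference with KAR2 passed the test (log2 fold change -0.03, SE 0.15, adjusted p = 0.884 in edgeR). RGL2 was 2.13-fold lower in Ara-1 than in untreated AtKAI2OE (log2 fold change -1.09, SE 0.19, adjusted p = 0.00156) and 2.13-fold lower than in KAR2-treated AtKAI2OE (log2 fold change -1.09, SE 0.11, adjusted p = 9.33e-05).

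Per length, RGL2 was the most abundant DELLA RNA in all 3 untreated AtKAI2OE libraries and GAI in all libraries of the other groups, as a share of the DELLA sum of CPM per kb of coding sequence. In Ara-1 replicate 1 GAI and RGL2 were close, and with transcript length in place of coding length RGL2 led there, with 28.6% against 26.9%. RGL2 held 37.6% to 43.6% of that sum in untreated AtKAI2OE, 29.4% to 31.8% with KAR2 and 26.0% to 28.4% in Ara-1, and these ranges did not overlap. RGL2, with a mean of 357 CPM in both AtKAI2OE groups, thus held a lower share with KAR2, where the sum of the family was larger. The DELLA sum was 532 ± 70.0 CPM per kb (SD, n = 3) in untreated AtKAI2OE and 709 ± 43.5 with KAR2. In Ara-1 the sum was 387 ± 37.9. GAI held 32.1% to 36.3%, 36.4% to 39.9% and 28.8% to 33.1% in the same order of groups, so that only the KAR2 group was free of overlap. RGL3 held 4.62% to 5.05%, 8.33% to 8.38% and 16.6% to 18.3%, and RGL1 held 0.0453% to 0.0926%, 0.559% to 0.761% and 2.66% to 2.98%. RGA held 17.5% to 21.6%, 21.7% to 22.8% and 19.97% to 23.2%, so that Ara-1 overlapped both other groups while untreated and KAR2-treated AtKAI2OE lay next to each other without overlap.

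**Figure D2:**
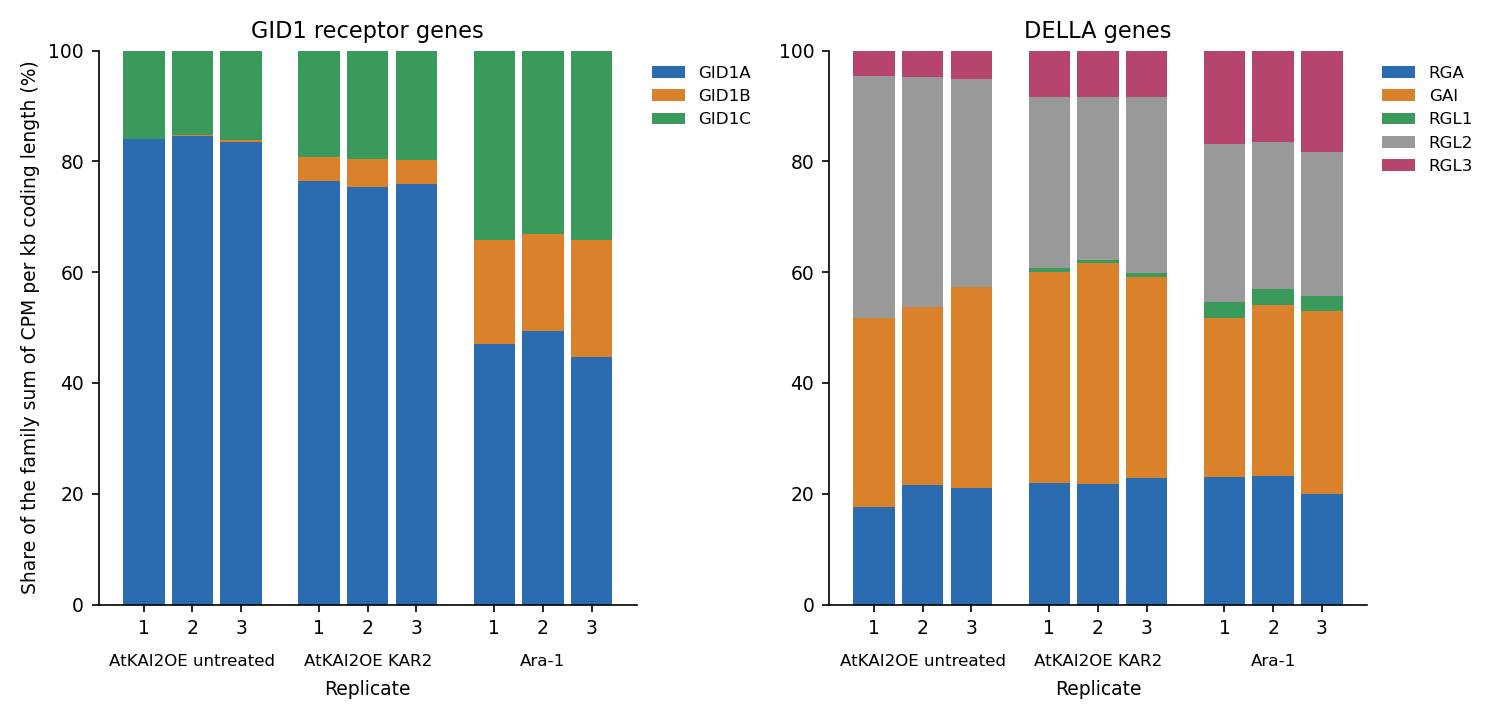
Share of each paralog in the summed level of its family (%, from CPM per kb of coding length, vertical axis from 0 to 100) in each of the 9 libraries, for the GID1 receptor genes on the left and the DELLA genes on the right. GID1A goes from 83.6% or more in untreated AtKAI2OE to 49.4% or less in Ara-1, and RGL3 grows from 5.05% or less of the DELLA sum in untreated AtKAI2OE to 16.6% or more in Ara-1.

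SLY1 (AT4G24210, chr4:12563279-12564482, plus strand), a gene with 1 exon, was at 33.7, 22.1 and 27.3 CPM in untreated AtKAI2OE, at 24.4, 23.6 and 21.1 CPM with KAR2 and at 11.3, 12.3 and 13.3 CPM in Ara-1. The AtKAI2OE groups overlapped, and every Ara-1 library was below both. With KAR2 the log2 fold change was -0.30 (SE 0.18, adjusted p = 0.21 in edgeR) and did not pass the test. Without untreated replicate 2, the lowest untreated library for this gene, it was -0.47 with an adjusted p of 0.0323. SLY1 was 2.29-fold lower in Ara-1 than in untreated AtKAI2OE (log2 fold change -1.20, SE 0.20, adjusted p = 0.00127) and 1.91-fold lower than in KAR2-treated AtKAI2OE (log2 fold change -0.93, SE 0.10, adjusted p = 0.000107).

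GA2ox2 (AT1G30040, chr1:10537457-10540044, plus strand), with 2 annotated transcripts, was at 32.8, 32.1 and 40.7 CPM in untreated AtKAI2OE, at 58.1, 61.4 and 53.2 CPM with KAR2 and at 9.88, 10.4 and 12.6 CPM in Ara-1. The groups did not overlap, and the order of levels was KAR2, untreated, Ara-1. GA2ox2 rose 1.61-fold with KAR2 (log2 fold change 0.69, SE 0.12, adjusted p = 0.00273 in edgeR). It was 3.25-fold lower in Ara-1 than in untreated AtKAI2OE (log2 fold change -1.70, SE 0.17, adjusted p = 8.58e-05) and 5.36-fold lower than in KAR2-treated seeds (log2 fold change -2.42, SE 0.11, adjusted p = 2.25e-06). Its second matrix entry held counts in 1 library only, 56 in Ara-1 replicate 2. The study's text states that GA2ox2 expression decreased on AtKAI2 activation, the opposite of the direction found here with KAR2. Under 16 other processing settings the log2 fold change of GA2ox2 with KAR2 stayed between 0.59 and 1.09. The reason for this disagreement was not tested.

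KAR2 against no KAR2 in AtKAI2OE compares the 10 genes with and without the karrikin in darkness. The study reports that its overexpression lines germinated in darkness with KAR2, but not from overexpression alone. Treatment and progress of germination therefore cannot be told apart in this comparison. Of the 10 genes, 6 rose (GID1B, RGA, GAI, RGL1, RGL3 and GA2ox2), 2 fell (GID1A and GID1C) and 2 did not pass the test (RGL2 and SLY1). Over the whole table, 53.8% of the 17226 genes tested were called, 29.8% as higher and 24.0% as lower, so that a call on most of 10 genes was not unusual here. The groups did not overlap for 8 of the 10 genes, against 65.2% of all genes tested. The median log2 fold change was 0.54 over the 10 genes and 0.06 over all genes.

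Ara-1 against untreated AtKAI2OE compares a wild-type accession with the overexpression line when neither received KAR2. Here 3 of the 10 genes were higher in Ara-1 (GID1B, RGL1 and RGL3), 6 were lower (GID1A, GID1C, GAI, RGL2, SLY1 and GA2ox2) and RGA did not pass the test. Among the 17905 genes tested 69.6% were called, 37.9% higher and 31.8% lower, and the groups did not overlap for 9 of the 10 genes against 75.2% of all. The median log2 fold change was -0.87 over the 10 genes and 0.16 over all genes. How the mapping of Ara-1 reads to the Col-0 reference affects these levels was not tested.

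Ara-1 against KAR2-treated AtKAI2OE compares the same accession with the line after treatment, and it shares its libraries with the other comparisons. RGL1 alone was higher in Ara-1, 7 genes were lower (GID1A, GID1C, RGA, GAI, RGL2, SLY1 and GA2ox2), and GID1B and RGL3 did not pass the test. Over all 17978 genes tested 62.4% were called, 30.1% higher and 32.2% lower, and the groups did not overlap for 8 of the 10 genes against 69.7% of all. The median log2 fold change was -0.98 over the 10 genes and -0.01 over all genes.

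**Figure D3:**
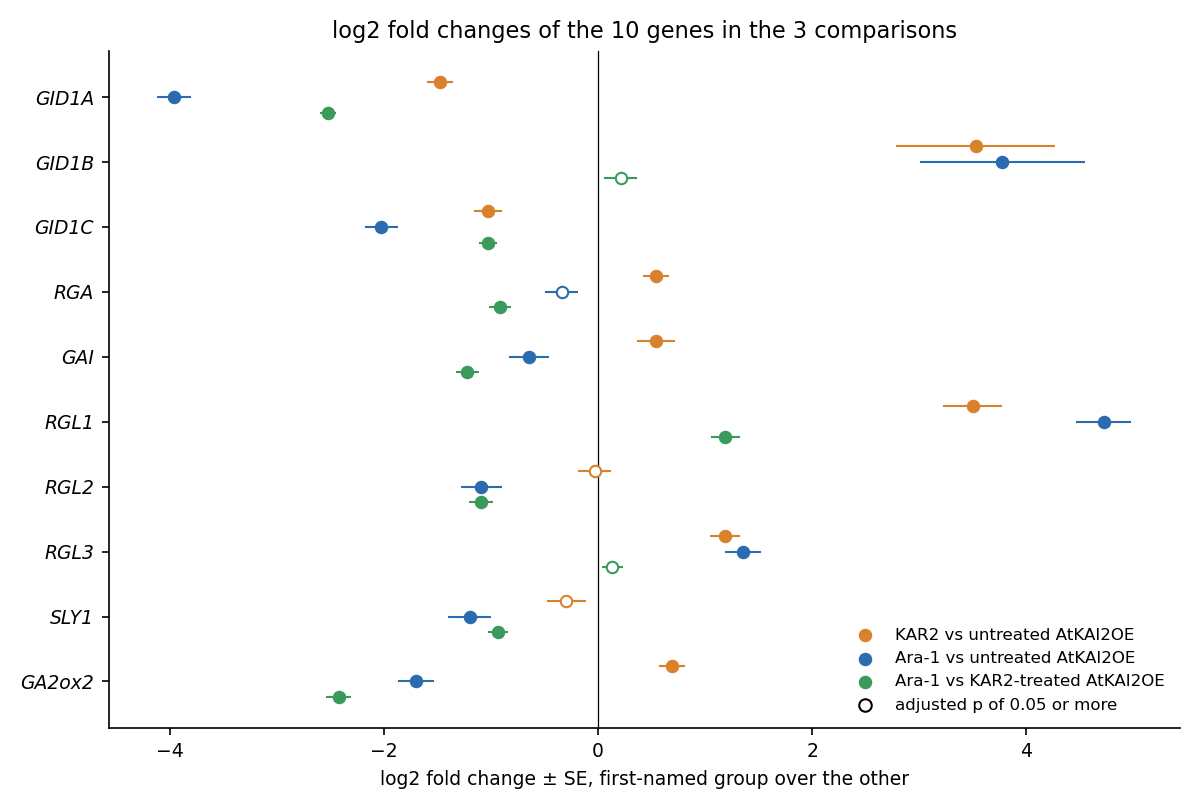
log2 fold change of each of the 10 genes (horizontal axis, first-named group over the second, bars are SE) in the 3 comparisons, marked by color. Filled points passed an adjusted p of 0.05 and open points did not; RGL2 and SLY1 are open for KAR2, RGA for Ara-1 against untreated AtKAI2OE, and GID1B and RGL3 for Ara-1 against KAR2-treated AtKAI2OE.

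The scaling of the libraries bears on the smaller of these differences. When only library size was used, the median log2 fold change of all genes went up by 0.40 in the KAR2 comparison and by 0.36 in Ara-1 against untreated AtKAI2OE. Calls for KAR2 then split into 7105 higher and 2267 lower, in place of 5140 and 4126, and calls for Ara-1 against untreated AtKAI2OE into 7904 and 4417, in place of 6785 and 5685. With this scaling RGL2 had a log2 fold change of 0.38 with KAR2 (adjusted p = 0.0324 in edgeR), which was -0.08 relative to the median gene. SLY1 turned to 0.12 with KAR2, or -0.34 relative to the median, and RGA to 0.02 in Ara-1 against untreated AtKAI2OE, or -0.50 relative to the median. The directions of the other genes held under this scaling, and the call for GAI in Ara-1 against untreated AtKAI2OE was lost (log2 fold change -0.28, adjusted p = 0.148).

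The genes were also compared by the shape of their pattern, as the root mean square (RMS) difference of log2 CPM over the 9 libraries after centering each gene on its mean. Among the 45 pairs within the 10 genes, RGL2 and SLY1 differed least (RMS 0.19), followed by RGA and GAI (RMS 0.20). The libraries are the same for all genes, so that these distances are descriptions and carry no p-value. Among 11910 other genes with an average log2 CPM of at least 2, the patterns nearest to GID1A were those of AT5G52420 (RMS 0.08) and ASG1 (RMS 0.10). Those nearest to RGL1 were AT5G65990 (RMS 0.17) and BGAL8 (RMS 0.18), and those nearest to GA2ox2 were PPCK1 (RMS 0.21) and HB4 (RMS 0.25). GID1B, with its few counts, had no neighbor as near, the closest being CYP709B2 (RMS 0.43) and AT1G32190 (RMS 0.48).

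A G-box, the sequence CACGTG bound by light-signaling factors of the bHLH and bZIP classes, was searched in the 1000 bases upstream of each gene in TAIR10.1; the motif reads the same on both strands. It was present upstream of 1 of the 10 genes, GAI, and upstream of 14.8% of the 27444 protein-coding genes. The match is printed with 12 bases on either side and the motif in capitals, on the plus strand at chr1:5148059-5148088, and it begins 911 bases before the annotated start of GAI.
GAI upstream: ggacccgttttaCACGTGgacccaatcaca
This is a match of letters and says nothing of binding.

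Of 36 other GA genes, chosen as 14 of biosynthesis, 10 of inactivation and 12 of signaling, 23 had enough counts to be tested. With KAR2 4 rose, 10 fell and 9 did not pass the test, in Ara-1 against untreated AtKAI2OE 2 were higher and 11 lower, and in Ara-1 against KAR2-treated AtKAI2OE 2 were higher and 14 lower. Together 14, 13 and 16 of the 23 genes were called, beside 53.8%, 69.6% and 62.4% of all genes tested in the same order. Of all genes tested, 29.8%, 37.9% and 30.1% were called higher and 24.0%, 31.8% and 32.2% lower. The median log2 fold changes of the 23 genes were -0.15, -1.19 and -1.37, against 0.06, 0.16 and -0.01 over all genes. In GA inactivation, 7 of the 10 genes beside GA2ox2 had no count in any library and 1 was tested, ELA1, which codes for a cytochrome P450 that inactivates GA. ELA1 was lower in Ara-1 than in untreated AtKAI2OE (1.47 against 39.3 CPM, log2 fold change -4.82, SE 0.32, adjusted p = 1.48e-05 in edgeR) and than in KAR2-treated seeds (log2 fold change -4.09, SE 0.26, adjusted p = 8.76e-06). GA2ox2 was thus the only GA 2-oxidase gene of the list with enough counts for the test.

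In GA biosynthesis, GA3ox1 and GA3ox2, which code for the enzymes of the last step to active GA, were at or near 0 in untreated AtKAI2OE. GA3ox2 had no count in the 3 untreated libraries and was at 3.23, 4.42 and 2.44 CPM with KAR2 and at 24.1, 23.7 and 22.8 CPM in Ara-1. Against a floor of 3 counts over the untreated group, it was at least 68.8-fold higher with KAR2 and at least 481-fold higher in Ara-1, and the floor covers counting error only. GA3ox1 was at 0, 0.12 and 0.234 CPM in untreated AtKAI2OE, at 4.2, 4.97 and 5.28 CPM with KAR2 and at 23.2, 21.7 and 22.4 CPM in Ara-1, a difference of 7.37 on the log2 scale between Ara-1 and untreated AtKAI2OE (SE 0.44, adjusted p = 9.8e-06 in edgeR).

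GA20ox3, an earlier oxidase of the pathway, went the other way. It fell from 836 to 420 CPM with KAR2 (log2 fold change -1.02, SE 0.14, adjusted p = 0.00101 in edgeR) and was at 21.5 CPM in Ara-1 (log2 fold change -5.31 against untreated AtKAI2OE, SE 0.19, adjusted p = 2.91e-06). GA20ox1, another 20-oxidase gene, named after its values were seen because its average level is under the limit for named genes, rose from 1.39 to 6.26 CPM with KAR2 (log2 fold change 2.14, SE 0.35, adjusted p = 0.00208). KS, of the early steps to ent-kaurene, fell with KAR2 as well (log2 fold change -1.14, SE 0.20, adjusted p = 0.00294). GA20ox2 was lower in Ara-1 than in KAR2-treated seeds (2.59 against 20.2 CPM, log2 fold change -2.99, SE 0.17, adjusted p = 4.94e-06).

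In GA signaling, all 12 genes were tested, and with KAR2 1 rose, 5 fell and 6 did not pass the test. Over all genes tested, 53.8% were called with KAR2, 29.8% as higher and 24.0% as lower. SCL3, a GRAS gene that DELLA proteins activate, fell from 226 to 99.6 CPM with KAR2 (log2 fold change -1.21, SE 0.15, adjusted p = 0.000608 in edgeR), and it was at 7.92 CPM in Ara-1 (log2 fold change -4.86 against untreated AtKAI2OE, SE 0.21, adjusted p = 3.95e-06). XERICO, a RING-type gene also known as a DELLA target, fell from 173 to 61.2 CPM (log2 fold change -1.52, SE 0.16, adjusted p = 0.00026) and was at 8.43 CPM in Ara-1 (log2 fold change -4.38, SE 0.23, adjusted p = 6.26e-06). SPY, an O-fucosyltransferase gene that acts on DELLA proteins, fell from 275 to 124 CPM with KAR2 (log2 fold change -1.16, SE 0.17, adjusted p = 0.00114). MYB101, of the GAMYB type, was the gene that rose, from 13.5 to 40.3 CPM (log2 fold change 1.55, SE 0.15, adjusted p = 0.000217).

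**Figure D4:**
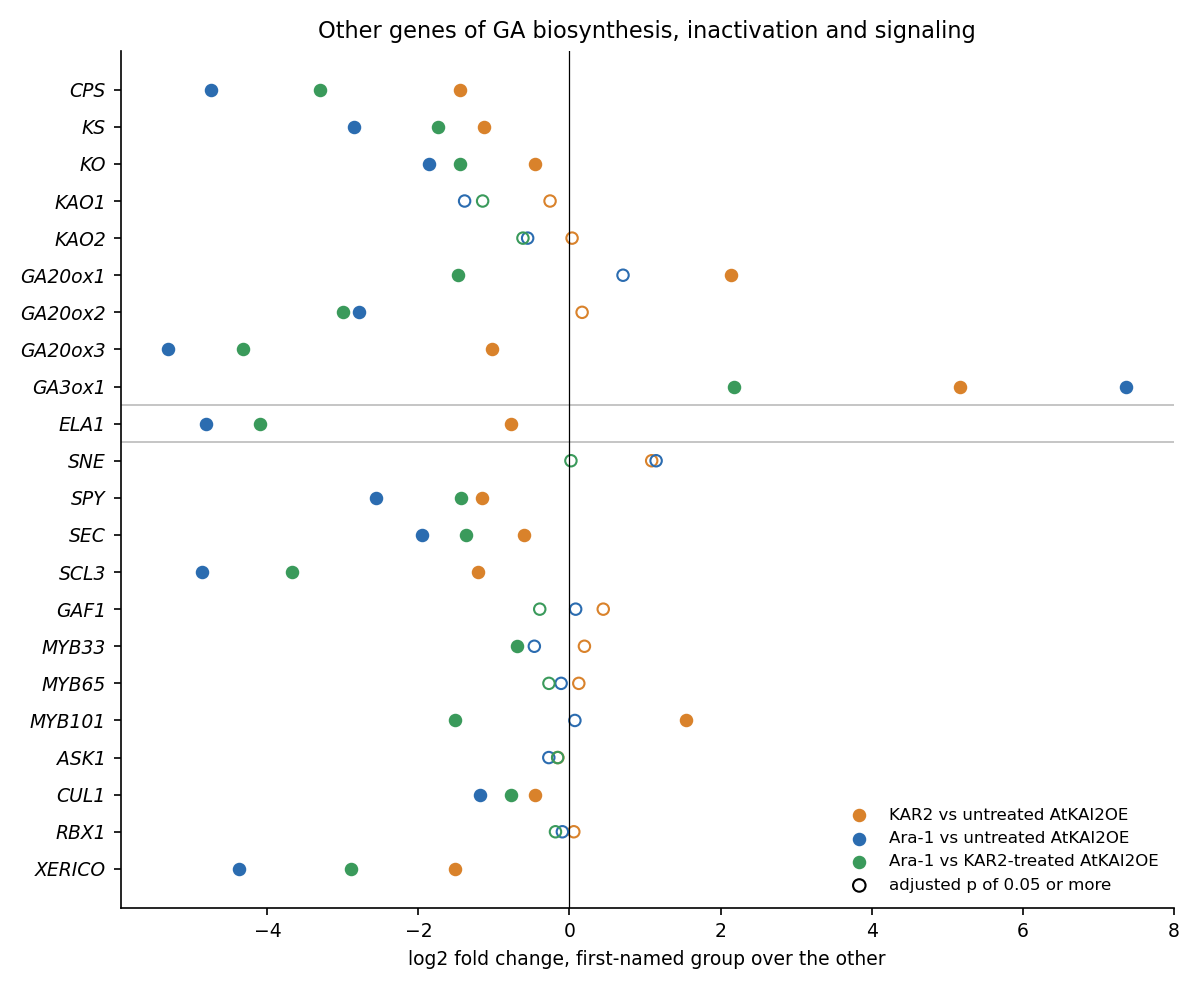
log2 fold change (horizontal axis, first-named group over the second) of the tested genes of GA biosynthesis (top block), inactivation (middle) and signaling (bottom) in the 3 comparisons, marked by color, with filled points at an adjusted p under 0.05. GA3ox2 is left off because it had no count in untreated AtKAI2OE; GA20ox3, SCL3 and XERICO lie left of 0 in every comparison and GA3ox1 lies right of 0 in every comparison.

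Some markers of other seed parts differed between the groups and others did not. All 5 storage protein and oleosin genes fell with KAR2 and were lower in Ara-1 than in either AtKAI2OE group, with log2 fold changes from -3.50 to -2.73 with KAR2. How many of all genes were lowest in each untreated AtKAI2OE library was not counted. Among the 10 genes, replicate 2 of that group had the lowest level of 8, the exceptions being GID1B and RGL1. It also had the highest levels of the storage protein genes CRA1 (82510 CPM against 45879 and 48610), CRB and CRC and the lowest levels of the oleosin genes OLEO1 (12296 CPM against 17039 and 18846) and OLEO2. The endosperm genes EPR1, EXPA2, MAN7 and MAN5 summed to between 1351 and 3526 CPM in untreated AtKAI2OE, 1653 and 1913 with KAR2 and 698 and 942 in Ara-1, where EPR1 fell and EXPA2 rose with KAR2 and the other 2 did not pass the test. The seed coat genes BAN, TT10, TT12 and MUM4 summed to between 2.38 and 4.98, 12.5 and 15.5, and 18.5 and 28.9 CPM in the same order, and nearly all of it was MUM4, since BAN and TT10 had no counts in any library. The green tissue genes RBCS1A, LHCB1.1, CAB3 and LHCB2.1 summed to between 121 and 208, 1175 and 1266, and 1275 and 1487 CPM. Nearly all of it was RBCS1A, and LHCB2.1 had no counts. Only uniquely mapped reads were kept, and whether reads of these marker genes map uniquely was not checked. The part of the makeup of the seed in the differences of the 10 genes was not tested.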

How the data were processed

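Whole-seed RNA from 9 libraries was sequenced as single reads of 75 bases. Per the submitters' processing notes and the study's methods, the authors mapped reads to TAIR10 with HISAT2 2.1.0, kept uniquely mapped reads with SAMtools 1.10, assembled and merged transcripts with StringTie 2.1.3 and extracted read counts. The deposited count matrix holds raw counts for 37054 entries, of which 1105 name no gene and were left out; they held 13.4% to 35.1% of the counts of a library, most in Ara-1 replicate 1. The deposited per-sample files hold a normalized signal, which the authors made by dividing counts by a DESeq2 1.18.1 size factor, and all of their values equaled that ratio within 0.1%. The libraries were stranded, and the strand setting of the counting was not given in the sources used here.

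Entries of 1 AGI identifier were summed. Genes kept by filterByExpr (minimum count 10, minimum total 15) were tested in each pair of groups with edgeR 4.0.16 (TMM, glmQLFTest) in R 4.3.3, with SE taken as the absolute log2 fold change divided by the root of the F statistic. Code was tested on simulated data. Alternatives were RLE or library-size scaling, other filters, DESeq2 1.42.0, limma 3.58.1 on log2(signal + 1), all 9 libraries in the fit, entry handling, a replicate block and leaving out each library. Sequences and coordinates are RefSeq's for TAIR10.1, and no position was converted between builds. The 10 genes and all lists were chosen with earlier results of these data known. Named genes were the 10, up to 6 listed GA genes per comparison with the largest called change at an average log2 CPM of at least 2, and the 2 nearest patterns of the 4 most variable genes. No deposited columns of the authors' own comparisons were used.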

Additional observations from a re-analysis of the deposited data

How the results depend on the processing

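Of 476 values of the 10 genes recomputed under 16 alternatives per comparison, 460 kept their direction and their side of the threshold. The values that turned in sign were RGL2 with KAR2 under library-size scaling (0.38), under a minimum of 10 counts in every library (0.0475) and without untreated replicate 1 (0.0723), SLY1 with KAR2 under library-size scaling (0.12) and RGA in Ara-1 against untreated AtKAI2OE under library-size scaling (0.018). Without 1 library at a time, RGL2 with KAR2 ranged from -0.159 to 0.0723. The cause was not tested. The call for GAI with KAR2 was also lost under RLE size factors (adjusted p = 0.052) and with limma on the normalized values (adjusted p = 0.0667), over a range of 0.00136 to 0.127 across its alternatives. The labels do not say whether a shared replicate number marks a shared batch, and correlations over 3 libraries per group cannot decide it. No comparison had all 3 same-number correlations over 0.1. The same-number values were -0.01, -0.09 and -0.02 between the AtKAI2OE groups and 0.05, 0.27 and 0.03 between Ara-1 and untreated AtKAI2OE. Between Ara-1 and KAR2-treated AtKAI2OE the values were -0.04, -0.06 and -0.08. With a replicate block 5 of the 10 genes rose with KAR2 in place of 6, GAI being lost (log2 fold change 0.55, adjusted p = 0.0894), and no other call on the 10 genes changed. Library-size scaling called 2267 genes lower with KAR2 over the whole table in place of 4126. With at least 10 counts in every library, 1 gene of the 10 was called higher in Ara-1 than in untreated AtKAI2OE, because GID1B and RGL1 were then not tested. Leaving out 1 library at a time gave 1 to 2 genes called higher in Ara-1 than in KAR2-treated AtKAI2OE, the second being RGL3 without Ara-1 replicate 2. With transcript length in place of coding length, an alternative chosen after seeing the data, the 24 mean family shares moved by at most 2.29 percentage points, 6 of them by over 1 SD. Depth limits GID1B and RGL1 in untreated AtKAI2OE, with 29 and 39 counts over 3 libraries.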
